A study of Homo sapiens with 60 samples.

Results

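The ethanol extract of Zizyphi Semen at its medium dose, 100 µg/mL, was set against the same extract at its low dose, 20 µg/mL, in A549, an established cell line from a human lung carcinoma. The comparison took 6 of the 60 libraries of the series, 3 at 100 µg/mL and 3 at 20 µg/mL, chosen by the dose in the labels and the library names of one library set. All cells were exposed for 24 h and mRNA was sequenced. The question was which genes already differ at 100 µg/mL. The series holds 8 herbal extracts at high, medium and low doses and a vehicle group. Beside the main pair stand the 3 libraries of the high dose of Zizyphi Semen, 500 µg/mL, from the same set, and the 3 vehicle libraries (0.1% DMSO per the labels, 2% per the series design text), which come from another set, so that vehicle and library set cannot be told apart. No DMSO share is given in the labels for the extract libraries. The model is a single carcinoma line in culture.

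Zizyphi Semen is the seed of a jujube and is used in East Asian medicine, chiefly for sleep. A549 cells carry high levels of enzymes that remove reactive aldehydes and quinones, because the pathway of the transcription factor NRF2 is active in this line. They also make prostaglandins from arachidonic acid, which phospholipase A2 releases from membranes and cyclooxygenase oxidises. Plant extracts are complex mixtures, and in such cells xenobiotic sensing, oxidative stress, lipid and inflammatory genes are the common readouts.

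The libraries held 21.044 to 29.665 M counts (M, mega) at 100 µg/mL and 21.951 to 27.753 M at 20 µg/mL, within the series' range of 18.003 to 33.832 M. The 2 libraries of the series that stand apart in how counts depend on transcript length belong to other extracts and enter no result on Zizyphi Semen unless named. Of the epithelial markers, KRT8 averaged 3230 CPM (counts scaled to library size with TMM factors) at 100 µg/mL and 3340 CPM at 20 µg/mL, whereas the alveolar marker NKX2-1 averaged 0 CPM at 100 µg/mL and 0.0261 CPM at 20 µg/mL. Marker sums of other cell types ran from 47.2 to 49.6 CPM at 100 µg/mL and 42.9 to 47.6 CPM at 20 µg/mL for fibroblasts, with COL1A1 the largest member. The leukocyte sum ran from 19.1 to 21.4 CPM at 100 µg/mL and 16.5 to 19.6 CPM at 20 µg/mL, with CD3E at 0 in all 6 libraries. The endothelial sum lay at 0.335 to 0.391 CPM at 100 µg/mL and 0.42 to 0.775 CPM at 20 µg/mL, with KDR and EMCN at 0. The hepatocyte sum lay at 93.2 to 96.2 CPM at 100 µg/mL and 86.8 to 92 CPM at 20 µg/mL, nearly all of it HNF4A, and the neural sum at 205 to 218 CPM at 100 µg/mL and 207 to 210 CPM at 20 µg/mL. The endothelial and hepatocyte sums did not overlap between the doses, and their part in the results was not tested.

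Genes of aldehyde and peroxide removal (ALDH3A1, GPX1), the early response receptor NR4A1, the prostaglandin genes PTGS2 and PLA2G4A and the Wnt antagonist DKK1 had lower counts at 100 µg/mL, with log2 fold changes between -0.19 and -0.40. No gene passed the main edgeR test, a fit of 12 libraries that did not pair them by replicate number. With the pairing (n = 3 pairs, edgeR), ALDH3A1, NR4A1 and PTGS2 passed both in the planned fit of the 9 Zizyphi Semen libraries and in a fit of the 6 medium and low libraries, whereas GPX1, PLA2G4A and DKK1 passed in the 6-library fit alone, which was added after the data were seen. The antisense gene CHMP1B-AS1 was higher at 100 µg/mL (log2 fold change 0.815) and also passed both fits. Of 15835 genes, the 6-library fit called 16 (0.101%), 7 higher and 9 lower. With edgeR's quasi-likelihood test and Benjamini-Hochberg adjustment, 0 of 16510 tested genes (0%) passed an adjusted p of 0.05, and the smallest adjusted p was 0.101. At an unadjusted p under 0.05 there were 617 genes (3.74%), 278 of them higher (1.68%) and 339 lower (2.05%) at 100 µg/mL. DESeq2 called 2 genes, both lower: ALDH3A1 (adjusted p 0.00138) and ENSG00000257411 (adjusted p 4.07e-05). For 1319 genes (7.99%) the 3 values at 100 µg/mL lay all above or all below the 3 at 20 µg/mL, 595 above (3.6%) and 724 below (4.39%). Whether the replicates came from separate cultures is not in the labels, and the p-values then cover only a spread among libraries that may be technical. In bulk RNA, fewer cells of a kind and less RNA per cell cannot be told apart.

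**Figure D1:**
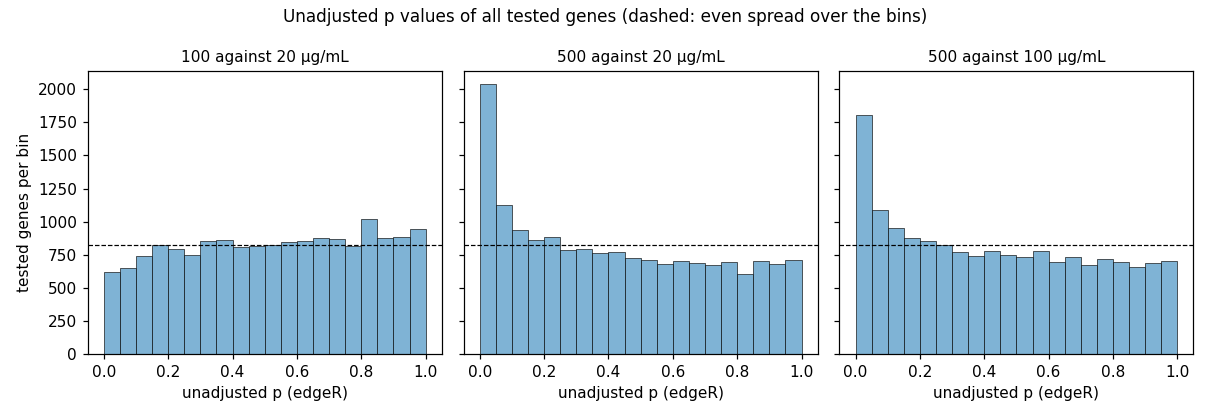
Histograms of the unadjusted edgeR p (x axis, 20 bins) with the number of tested genes per bin (y axis) for 3 comparisons of Zizyphi Semen doses. The leftmost bin holds 617 genes for 100 against 20 µg/mL, below the dashed even level, and 2038 and 1809 genes for the comparisons with 500 µg/mL.

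How small a change could have been seen follows from the intervals. Of 13888 genes with a mean of at least 1 CPM, the 95% interval of the fold change lay inside 2-fold in either direction for 13712 (98.7%) and inside 1.5-fold for 12848 (92.5%). Of 9472 genes with at least 10 CPM, 9457 (99.8%) lay inside 2-fold and 9437 (99.6%) inside 1.5-fold. A change beyond 1.5-fold between these doses thus lay outside the interval of nearly every gene at that level.

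**Figure D2:**
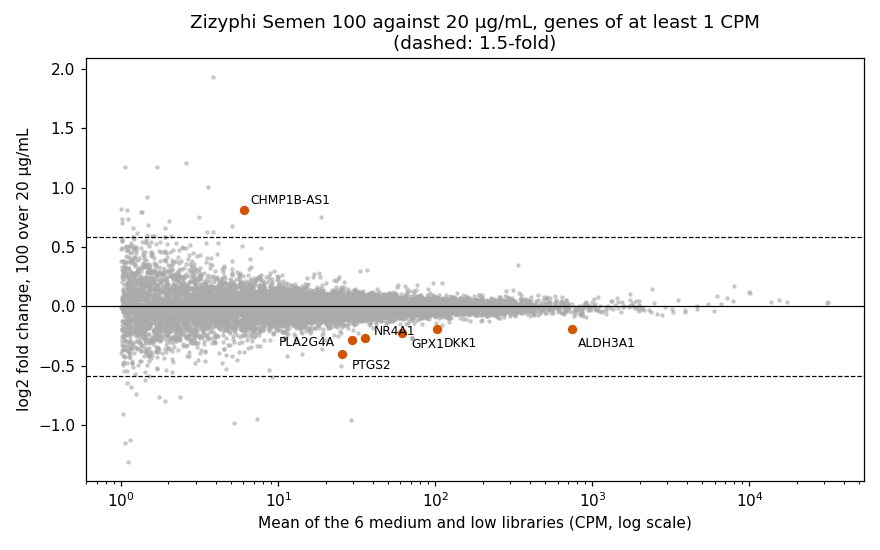
Log2 fold change of 100 over 20 µg/mL (y axis) against the mean CPM of the 6 libraries (x axis, log scale) for genes of at least 1 CPM, 1 point per gene. The orange points are 7 genes described in the text: 6 lie below 0 (ALDH3A1, GPX1, NR4A1, PLA2G4A, PTGS2, DKK1) and CHMP1B-AS1 lies above, alone of these beyond the dashed 1.5-fold lines.

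Libraries of the same replicate number at the 2 doses deviated from their group means together. A fit of the 6 libraries with the replicate number as a block is therefore given beside the unpaired one (adjusted over 15835 genes, edgeR), and is called the paired fit below. It called 16 genes (0.101%), 7 higher and 9 lower at 100 µg/mL. The planned block fit, which also holds the high-dose libraries, called 4 of 16203 genes (0.0247%): CHMP1B-AS1 higher, and ALDH3A1, NR4A1 and PTGS2 lower. All 4 were also among the 16. The genes below were called in the paired fit but not in the unpaired one, except where stated.

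The gene with the smallest p in the unpaired fit was ALDH3A1 (chr17:19737984-19748943, minus strand, GRCh38), an aldehyde dehydrogenase that oxidises aromatic and lipid-derived aldehydes and a known target of both the aryl hydrocarbon receptor (AHR) and NRF2. It had 681, 727 and 671 CPM at 100 µg/mL, against 795, 779 and 796 CPM at 20 µg/mL. Every library at 100 µg/mL lay below every library at 20 µg/mL. The log2 fold change was -0.19 with an SE of 0.032, at an adjusted p of 0.101 in the unpaired edgeR fit and 0.00523 in the paired one. Without medium replicate 2 the gene was called in the unpaired fit too. Vehicle libraries had 897, 843 and 854 CPM, and the high dose 690, 663 and 664 CPM, where the gene fell against the low dose by 0.23 on the log2 scale (edgeR adjusted p 0.000307). From 100 to 500 µg/mL the difference was -0.04 (adjusted p 0.684, edgeR), and the values at these 2 doses overlapped. ALDH3A1 was the single member of 8 tested AHR targets to pass an unadjusted 0.05. CYP1B1, the other abundant AHR-induced oxidase, averaged 84.7 CPM at 100 µg/mL and 82.2 CPM at 20 µg/mL. NQO1, a quinone reductase in both lists, averaged 1210 CPM at 100 µg/mL and 1240 CPM at 20 µg/mL. CYP1A1, the standard reporter of the receptor, averaged 0.998 CPM at 100 µg/mL and 1.05 CPM at 20 µg/mL. Of 28 tested NRF2 targets, 2 were lower at an unadjusted 0.05 (ALDH3A1 and GPX2) and 0 higher. Over all tested genes, 2.05% were lower and 1.68% higher at that p.

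Glutathione peroxidase genes came next. GPX1 (chr3:49357171-49358600, minus strand), which reduces hydrogen peroxide and whose product contains selenocysteine, had 58.1, 56 and 55.8 CPM at 100 µg/mL, against 67.1, 64.8 and 66.5 CPM at 20 µg/mL. The 2 groups did not overlap. The log2 fold change was -0.23 with an SE of 0.042 (edgeR adjusted p 0.101 unpaired, 0.00927 paired and 0.0611 in the 9-library block fit). The gene has near-identical processed copies elsewhere in the genome, so the counting may have split its reads and its value is uncertain. Vehicle libraries had 74.8, 75.8 and 76.7 CPM, and the high dose 61, 60.7 and 55.7 CPM.

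Other selenoprotein genes were looked at after these values were seen, so the following is a description without a test. Of 21 tested selenoprotein genes, 17 lay below 0, beside 8567 of 16510 for all genes. The selenoprotein median was -0.06, beside -0.0032 for all genes. SELENOW, a small selenoprotein of redox control, had 40.6, 40.6 and 38.5 CPM at 100 µg/mL, against 44.9, 44.6 and 43.7 CPM at 20 µg/mL. GPX3, the secreted peroxidase, had 14.2, 13.9 and 13.5 CPM at 100 µg/mL, against 14.5, 16.6 and 16.1 CPM at 20 µg/mL. TXNRD1, the abundant thioredoxin reductase, differed by -0.01 on the log2 scale, and GPX4 by -0.06. None of these passed after adjustment in either fit.

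Of the NR4A receptors, the orphan nuclear receptors induced by short stimuli, NR4A1 (chr12:52022832-52059507, plus strand) had 32.9, 32.5 and 31.6 CPM at 100 µg/mL, against 40, 38.2 and 38.6 CPM at 20 µg/mL. All 3 medium values lay below all 3 low ones. The log2 fold change was -0.26 with an SE of 0.05 (edgeR adjusted p 0.101 unpaired, 0.0106 paired). At 500 µg/mL it had 25.8, 24.9 and 24.5 CPM and had fallen further, by 0.37 on the log2 scale against the medium dose (edgeR adjusted p 0.000921). The medium libraries thus stood between the low and the high ones, without overlap. Vehicle libraries, from another set, had 35.4, 33.4 and 37.3 CPM, all below the low and above the medium ones. NR4A2 averaged 5.6 CPM at 100 µg/mL and 7.15 CPM at 20 µg/mL, and NR4A3 averaged 9.03 CPM at 100 µg/mL and 10.1 CPM at 20 µg/mL. Neither was called. Of the classical early genes, FOS averaged 5.03 CPM at 100 µg/mL and 5.29 CPM at 20 µg/mL, and MYC averaged 138 CPM at 100 µg/mL and 136 CPM at 20 µg/mL. Of 18 tested immediate early genes, 2 were higher (FOSL1 and ATF3) and 2 lower (NR4A1 and NR4A2) at an unadjusted 0.05. Over all tested genes, 1.68% were higher and 2.05% lower at that p.

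PTGS2 and PLA2G4A, which act in the first steps of prostaglandin synthesis, were called lower in the paired fit. PTGS2 (chr1:186671791-186680427, minus strand), the inducible cyclooxygenase, had 24.3, 21.1 and 20.7 CPM at 100 µg/mL, against 32.9, 27.1 and 27.2 CPM at 20 µg/mL. PLA2G4A (chr1:186828953-186988981, plus strand), the cytosolic phospholipase A2 that releases arachidonic acid, had 28.3, 25.9 and 25.3 CPM at 100 µg/mL, against 32.5, 33.3 and 31.1 CPM at 20 µg/mL. In both genes all medium values lay below all low values, and replicate 1 of PTGS2 was the highest library in each group. The log2 fold change of PTGS2 was -0.40 with an SE of 0.091 (edgeR adjusted p 0.983 unpaired, 0.000872 paired). That of PLA2G4A was -0.29 (edgeR adjusted p 0.234 unpaired, 0.0216 paired). Vehicle libraries had 30.1, 26.8 and 30.1 CPM of PTGS2, overlapping the low dose. For PLA2G4A they had 38.5, 36.1 and 37.1 CPM, above the low and the medium dose. At 500 µg/mL PTGS2 had 20.5, 17.8 and 16.8 CPM and PLA2G4A 24.6, 25 and 21.5 CPM, and against the low dose PTGS2 fell by 0.66 (edgeR adjusted p 0.00174) and PLA2G4A fell by 0.45 on the log2 scale (edgeR adjusted p 0.00021). The terminal synthase PTGES had 18.6, 19.8 and 20.1 CPM at 100 µg/mL, against 19, 17.4 and 17.7 CPM at 20 µg/mL, and the groups overlapped. At 500 µg/mL PTGES had 22.8, 21.7 and 22.3 CPM and rose by 0.30 on the log2 scale against the low dose (edgeR adjusted p 0.0109), opposite to PTGS2 and PLA2G4A. PTGES2, another prostaglandin E synthase, differed by -0.07 between 100 and 20 µg/mL, and at 500 µg/mL it rose by 0.23 against the medium dose (edgeR adjusted p 0.0257) and was not called against the low dose (edgeR adjusted p 0.108). HPGD, which inactivates prostaglandins, differed by -0.02 on the log2 scale. Of 12 tested genes of the pathway, a list drawn up after these values were seen, 9 lay below 0. Over all tested genes, 8567 of 16510 lay below 0.

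The promoter windows of the 2 prostaglandin genes, which differed together, and of GPX1 are shown from RefSeq on GRCh38.p14, from 250 bases before to 50 bases after the annotated start, each read on its gene's strand. They lie at chr1:186680374-186680673 for PTGS2, chr1:186828699-186828998 for PLA2G4A and chr3:49358304-49358603 for GPX1, and capitals mark a match to the AHR core GCGTG or its reverse complement CACGC.
PTGS2: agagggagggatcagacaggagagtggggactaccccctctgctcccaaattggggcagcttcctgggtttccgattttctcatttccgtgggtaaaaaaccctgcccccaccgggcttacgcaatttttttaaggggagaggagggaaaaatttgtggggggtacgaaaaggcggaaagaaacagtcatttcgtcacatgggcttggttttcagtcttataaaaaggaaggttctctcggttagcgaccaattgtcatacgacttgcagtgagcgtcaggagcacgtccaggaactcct
PLA2G4A: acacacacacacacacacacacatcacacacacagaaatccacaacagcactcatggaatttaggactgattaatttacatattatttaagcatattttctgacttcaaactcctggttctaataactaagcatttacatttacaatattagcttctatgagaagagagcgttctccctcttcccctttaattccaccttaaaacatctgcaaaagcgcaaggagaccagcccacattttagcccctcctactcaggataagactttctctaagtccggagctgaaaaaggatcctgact
GPX1: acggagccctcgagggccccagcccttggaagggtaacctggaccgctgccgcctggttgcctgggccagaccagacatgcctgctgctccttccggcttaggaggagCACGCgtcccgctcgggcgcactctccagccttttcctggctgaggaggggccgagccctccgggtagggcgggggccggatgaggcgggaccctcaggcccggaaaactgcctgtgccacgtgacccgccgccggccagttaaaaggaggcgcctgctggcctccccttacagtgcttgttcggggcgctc
Motifs were searched on both strands. The AHR core GCGTG is in 36.5% of 35116 promoter windows, the antioxidant element TGACNNNGC in 13.3%, the ATF4 element TGATGNAA in 3.62%, the element TGACGTCA in 1.85%, the sterol element TCACNCCAC in 1.13% and the PPAR element DR1 in 0.0228%. GPX1 held 1 match, the AHR core at bases 109 to 113 of the window, and the other 2 windows shown held none. Of the windows searched but not shown, that of NR4A1 at chr12:52037465-52037764 held 1 match, the AHR core at bases 70 to 74. The NR4A1 window at chr12:52022582-52022881 and the DKK1 window held none. ALDH3A1 had no entry among the promoter sequences used.

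In the Wnt pathway, DKK1 (chr10:52314296-52318042, plus strand), a secreted Wnt antagonist, had 103, 94.3 and 90.8 CPM at 100 µg/mL, against 113, 112 and 104 CPM at 20 µg/mL. The groups did not overlap, though the highest medium and the lowest low library lay close together. The log2 fold change was -0.19 (paired edgeR adjusted p 0.0165), and at 500 µg/mL the gene fell by 0.30 against the low dose (edgeR adjusted p 0.00141). Vehicle libraries had 102, 108 and 110 CPM, overlapping both the low and the medium ones. AXIN2, a feedback inhibitor and standard reporter of the pathway, had 3.65, 4.13 and 3.06 CPM at 100 µg/mL, against 5.54, 5.47 and 4.33 CPM at 20 µg/mL. It was not called at 100 µg/mL (paired edgeR adjusted p 0.193) and at 500 µg/mL it fell by 0.78 against the low dose (edgeR adjusted p 0.00709). Vehicle libraries had 3.56, 3.33 and 3.69 CPM of AXIN2, below the low and overlapping the medium ones. RNF43, a ligase that removes Wnt receptors, had 5.91, 5.35 and 4.35 CPM at 100 µg/mL, against 6.71, 5.84 and 6.14 CPM at 20 µg/mL, and these overlapped. Over all tested genes, 8567 of 16510 lay below 0. Of 10 tested genes of a Wnt list, also drawn up after the values were seen, 7 lay below 0 and 3 above, with a median of -0.03. Most of the others lay near 0: CCND1, a cell cycle target, differed by -0.02 and the receptor gene LGR4 by 0.04 on the log2 scale.

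Among genes higher at 100 µg/mL, CHMP1B-AS1 (chr18:11851414-11852751, minus strand) lies antisense within CHMP1B and had 6.6, 6.81 and 9.9 CPM at 100 µg/mL, against 4.49, 4.01 and 4.58 CPM at 20 µg/mL. Its log2 fold change was 0.81 with an SE of 0.21, at a paired edgeR adjusted p of 0.000872, while the high dose had 5.74, 4.39 and 5.13 CPM, all below the medium libraries (edgeR adjusted p 0.266 against 100 µg/mL). CHMP1B itself differed by -0.07 on the log2 scale. The strand setting of the counting is not given, so reads of the 2 genes cannot be told apart. Other genes of smallest unadjusted p in this direction were not called in either fit. They were POLR2J3, a copy of an RNA polymerase II subunit gene with near-identical relatives, at 63, 59.3 and 59.5 CPM at 100 µg/mL, against 54, 50.9 and 57.3 CPM at 20 µg/mL, and the low-level ENSG00000280064 and RPL32P18, with log2 fold changes of 0.53 for ENSG00000280064 and 0.52 for RPL32P18.

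Most of the other genes called in the paired fit have uncertain reads. NPIPA7 and CSPG4P5 (higher) and NPIPB13 (lower) belong to duplicated families, MT-ND2 and its nuclear copy MTND2P28 (both higher) share sequence, and TUBA1B-AS1 (higher) is antisense. TUBA1B-AS1 had 342, 318 and 478 CPM at 100 µg/mL, against 275, 247 and 369 CPM at 20 µg/mL, and these overlapped, with replicate 3 the highest in each group. Its adjusted p was the smallest of the paired fit (edgeR adjusted p 3.92e-08), while its unpaired log2 fold change was 0.35 with an SE of 0.744. Vehicle libraries had 81.9, 0.438 and 89.7 CPM. ENSG00000257411, which overlaps ERBB3 and PA2G4 on the same strand in GENCODE 29, had 5.39, 5.18 and 4.21 CPM at 100 µg/mL, against 8.98, 12 and 7.96 CPM at 20 µg/mL (paired edgeR adjusted p 2.5e-05). It was called in the unpaired fit without low replicate 3. At 500 µg/mL it had 9.1, 7.43 and 9.97 CPM, close to the low dose. SLC5A2, a glucose transporter gene, had 0, 0.305 and 0.0478 CPM at 100 µg/mL, against 0.671, 1 and 0.545 CPM at 20 µg/mL.

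**Figure D3:**
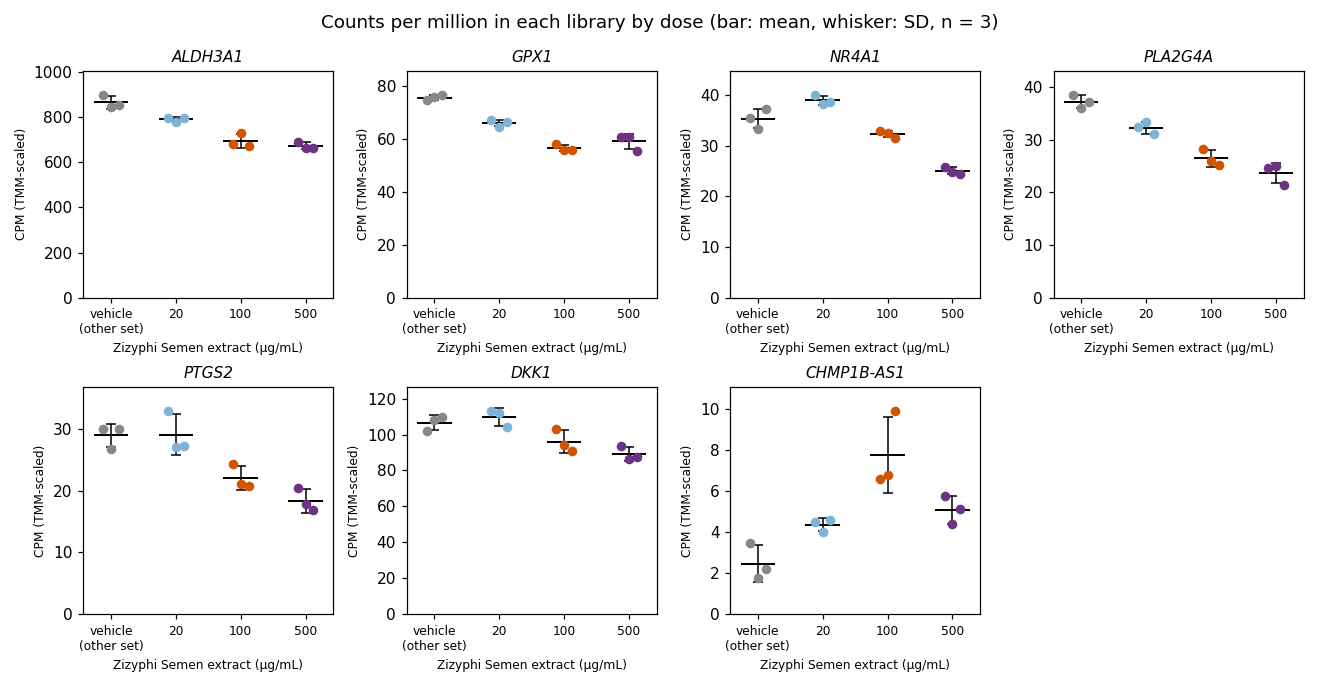
CPM (y axis, from 0) in each library by dose (x axis, vehicle from another library set, then 20, 100 and 500 µg/mL) for 7 genes, points for libraries, bars for means and whiskers for SD (n = 3). For ALDH3A1, GPX1, NR4A1, PLA2G4A, PTGS2 and DKK1 the 3 values at 100 µg/mL lie below the 3 at 20 µg/mL, and for CHMP1B-AS1 above.

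**Figure D4:**
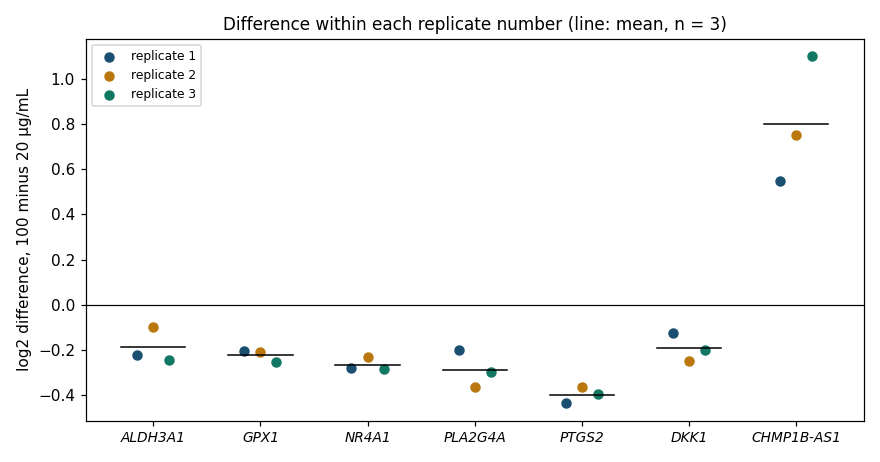
Log2 difference of 100 minus 20 µg/mL within each replicate number (y axis) for the same 7 genes (x axis), with a line at the mean of 3. All 3 differences share a sign in each gene, from -0.436 to -0.364 for PTGS2 and from 0.549 to 1.1 for CHMP1B-AS1.

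For 29 gene lists on pathways, none had a member called in the unpaired fit. Medians ran from -0.05 for cytosolic heat shock genes to 0.07 for mitochondrially encoded genes, beside -0.0032 for all genes. Of all 16510 tested genes, 8567 lay below 0. Heat shock genes had 16 of 20 members below 0, with HSP90AA1, a cytosolic chaperone, at 2520 CPM at 100 µg/mL and 2630 CPM at 20 µg/mL on average. All 13 mitochondrially encoded genes lay above 0, from 0.04 (MT-CO1) to 0.17 (MT-ND2). The share of counts from the mitochondrial genome was 15.91 to 16.47% at 100 µg/mL and 14.43 to 16.3% at 20 µg/mL, the lowest library being low replicate 1. Without that library the median log2 fold change of mitochondrially encoded genes was -0.00187. Of 71 cytosolic ribosomal protein genes 60 lay below 0, with a median of -0.03. The median log2 fold change of cytosolic ribosomal protein genes was 0.0013 without medium replicate 1. Proteasome subunits had 25 of 31 members below 0 (median -0.03).

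**Figure D5:**
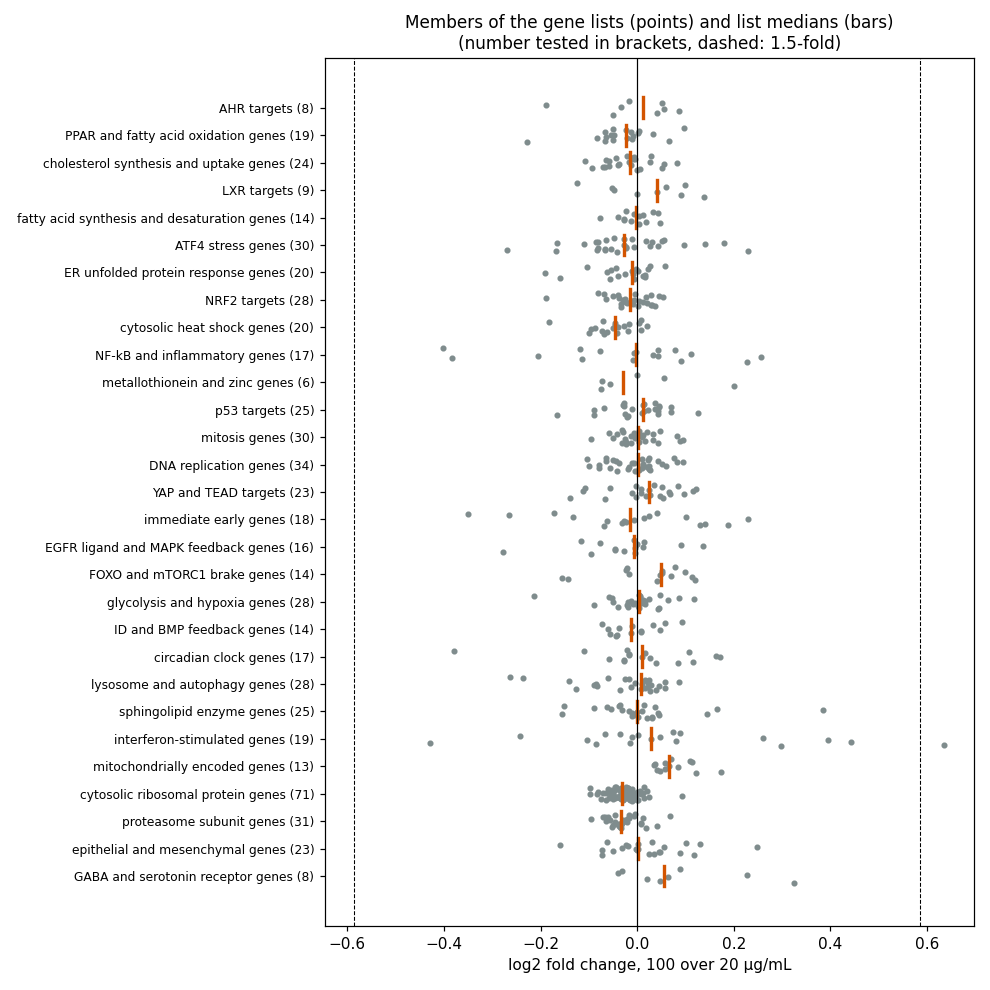
Log2 fold change of 100 over 20 µg/mL (x axis) of each member of 29 gene lists (y axis, number tested in brackets), grey points for genes and orange bars for list medians. Medians lie between -0.0461 and 0.0653, and the dashed lines mark 1.5-fold.

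The lipid lists and the list of ATF4 stress genes had no called member in either fit. PDK4, the kinase that turns off pyruvate dehydrogenase and a PPAR target, had 32.4, 28.7 and 27.7 CPM at 100 µg/mL, against 36.1, 36.4 and 31.6 CPM at 20 µg/mL. The groups overlapped in 1 library and the log2 fold change of -0.23 did not pass (paired edgeR adjusted p 0.0915), while at 500 µg/mL it fell by 0.73 against the low dose (edgeR adjusted p 2.48e-06). None of 24 cholesterol synthesis and uptake genes passed an unadjusted 0.05, and SQLE, which oxidises squalene, averaged 114 CPM at 100 µg/mL and 118 CPM at 20 µg/mL. Of 30 genes of the ATF4 stress response, 1 was higher and 3 lower at an unadjusted 0.05, among them GDF15, a stress cytokine, with 12.1, 13 and 13.3 CPM at 100 µg/mL, against 13.8, 14 and 15.2 CPM at 20 µg/mL. Over all tested genes, 1.68% were higher and 2.05% lower at that p. CTSL, a lysosomal protease, had 178, 193 and 189 CPM at 100 µg/mL, against 202, 209 and 200 CPM at 20 µg/mL. It did not pass after adjustment (paired edgeR adjusted p 0.137). Of 8 tested GABA and serotonin receptor and turnover genes none passed an unadjusted 0.05.

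The members of smallest p in the remaining lists were likewise small in size and uncalled in both fits. In the cell cycle, PCNA, the sliding clamp of DNA replication, had 209, 215 and 206 CPM at 100 µg/mL, against 229, 217 and 219 CPM at 20 µg/mL. BUB1B, a kinase of the spindle checkpoint, had 73.9, 73.4 and 74 CPM at 100 µg/mL, against 70.9, 68 and 69.1 CPM at 20 µg/mL. Neither gene overlapped between the groups, and of 34 replication and 30 mitosis genes tested, 2 replication genes were lower and 2 mitosis genes higher at an unadjusted 0.05. Over all tested genes, 2.05% were lower and 1.68% higher at that p. In proteostasis, DNAJA1, a co-chaperone of HSP70, had 236, 254 and 256 CPM at 100 µg/mL, against 260, 265 and 271 CPM at 20 µg/mL. ERN1, the endoplasmic reticulum stress sensor IRE1, had 14.6, 14.6 and 14.8 CPM at 100 µg/mL, against 17.5, 15.8 and 17 CPM at 20 µg/mL. PSMC6, an ATPase of the proteasome, had 60.4, 62.4 and 60.6 CPM at 100 µg/mL, against 64.1, 68.1 and 64.1 CPM at 20 µg/mL. These 3 genes were lower in every medium library, with log2 fold changes of -0.09 for DNAJA1, -0.19 for ERN1 and -0.10 for PSMC6.

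Among signalling genes, PHLDA1, induced by growth factors, had 69.9, 71.6 and 79.7 CPM at 100 µg/mL, against 79.8, 81.2 and 78.4 CPM at 20 µg/mL, with overlap in replicate 3. ARRDC3, an arrestin-like gene and FOXO target, had 61.6, 54.4 and 58.1 CPM at 100 µg/mL, against 55, 51.1 and 54.3 CPM at 20 µg/mL, also with overlap. ADM, the hypoxia-induced peptide adrenomedullin, had 43.4, 48.5 and 43.9 CPM at 100 µg/mL, against 42.8, 40 and 42.6 CPM at 20 µg/mL. The log2 fold changes were -0.12 for PHLDA1, 0.11 for ARRDC3 and 0.12 for ADM. In lipid genes, FADS2, a fatty acid desaturase, had 434, 455 and 419 CPM at 100 µg/mL, against 457, 463 and 459 CPM at 20 µg/mL. IDI1, of isoprenoid synthesis, had a log2 fold change of -0.07, LPCAT3, an LXR target that remodels phospholipids, of 0.06, and ACER2, a ceramidase, of 0.38 at about 2 CPM. IFIT2, an interferon-stimulated gene, was under 1 CPM on average in both groups and had a log2 fold change of 0.63. HES1 (0.09), the clock gene PER2 (0.08), the metallothionein MT1X (0.20), the folate hydrolase gene GGH (-0.11), the ribosomal gene RPS3A (-0.08) and the GABA receptor gene GABRQ (0.23) complete the set, each as a log2 fold change.

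More genes passed at the high dose. Against the low dose 252 genes were called (1.53%), 95 higher (0.575%) and 157 lower (0.951%), and against the medium dose 118 (0.715%), 61 higher (0.369%) and 57 lower (0.345%). These comparisons share the low or the medium libraries with the main one. Some genes with the largest high-dose changes, chosen after their values were seen, had medium values near the low dose. KRT19, a keratin of simple epithelia, had 23, 23.1 and 25.9 CPM at 20 µg/mL and 23.2, 24.5 and 24.5 CPM at 100 µg/mL, and rose to 30.1, 32.2 and 30.7 CPM at 500 µg/mL (edgeR adjusted p 0.00198 against 100 µg/mL). CENPE, a kinesin of the mitotic spindle, had 60.5, 54.4 and 65.4 CPM at 20 µg/mL and 55.8, 51.4 and 62.5 CPM at 100 µg/mL, and fell to 39.6, 39.4 and 40.6 CPM at 500 µg/mL (edgeR adjusted p 0.0133 against 100 µg/mL). In both genes the 20 and 100 µg/mL libraries overlapped and the 500 µg/mL libraries stood clear of both. SUSD2, which codes for a membrane protein, had 41.3, 44.2 and 42.4 CPM at 20 µg/mL and 36.4, 40 and 35.8 CPM at 100 µg/mL, and fell to 25.8, 29.2 and 27.7 CPM at 500 µg/mL (edgeR adjusted p 0.000208 against 100 µg/mL). Its medium libraries lay between the other doses without overlap, and between 100 and 20 µg/mL it was not called (paired edgeR adjusted p 0.124). Vehicle libraries had 37.5, 36.9 and 35.6 CPM of SUSD2, below the low and overlapping the medium ones.

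The same dose step of 2 other ethanol extracts was set beside that of Zizyphi Semen. Without pairing by replicate number, no gene passed the main edgeR test of the difference or that of DESeq2. The difference from Longan Arillus (same library set, without its low replicate 3) had 0 of 16752 genes called (0%) by edgeR and 0 by DESeq2, with 510 at an unadjusted 0.05 (3.04%). The difference from Schisandrae Fructus had 0 of 16546 called (0%) by edgeR and 0 by DESeq2, with 533 at an unadjusted 0.05 (3.22%). With the replicate number as a block within each extract, 7 genes (0.0418%) passed for Longan Arillus and 2 (0.0121%) for Schisandrae Fructus by edgeR. CHMP1B-AS1, described above, was among the 2, with a dose step higher by 1.22 on the log2 scale in Zizyphi Semen than in Schisandrae Fructus (edgeR adjusted p 0.015), and the other was ENSG00000267059. TUBA1B-AS1 was among the 7, with a step higher by 0.72 in Zizyphi Semen than in Longan Arillus (edgeR adjusted p 3.84e-07). MT-ND6 (higher by 0.47, edgeR adjusted p 5.06e-05) and MUC5B (higher by 0.35, edgeR adjusted p 0.044) were also among them. Neither was called in the paired fit of Zizyphi Semen. In all, 5 of the 7 had a higher step in Zizyphi Semen and 2 a lower one. ALDH3A1, PTGS2, GPX1 and NR4A1 were in neither set, and of these PTGS2 against Longan Arillus had the smallest edgeR adjusted p, at 0.179. For ALDH3A1 the step was -0.19 in Zizyphi Semen, against -0.10 in Longan Arillus and -0.07 in Schisandrae Fructus. For PTGS2 it was -0.40 in Zizyphi Semen, against -0.03 in Longan Arillus and -0.20 in Schisandrae Fructus. For GPX1 the step was -0.23 in Zizyphi Semen, against -0.05 in Longan Arillus and -0.20 in Schisandrae Fructus. For NR4A1 it was -0.26 in Zizyphi Semen, against -0.13 in Longan Arillus and -0.20 in Schisandrae Fructus. In all 4 genes the step was below 0 in each extract, and a p that misses the threshold does not show that the extracts act alike. For DKK1 the step was -0.19 in Zizyphi Semen, against 0.007 in Longan Arillus and -0.13 in Schisandrae Fructus. For PLA2G4A it was -0.29 in Zizyphi Semen, against -0.08 in Longan Arillus and -0.18 in Schisandrae Fructus.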

How the data were processed

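Expected counts of each gene, not scaled for depth or length, were deposited by the authors as 1 table. Tools named by the submitters' processing notes are RSEM 1.3.3, STAR 2.7.3a, FastQC 0.11.9 and Trim Galore 0.6.5, with build hg38 (GRCh38). Per the labels' protocols, the kit was directional and reads were 100 bp pairs. Neither the annotation release nor the strand setting is given in the sources used here. Of the values, 10.48% were not whole, and all were rounded. Of 60675 identifiers, 41209 had an official symbol and 57055 were in GENCODE 29, the source of gene coordinates. Counts of replicate pairs differed by more than sampling noise (chi-square per degree of freedom at least 2.323), so each library counted once.

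The 12 Zizyphi Semen and vehicle libraries were fitted with edgeR 4.0.16 in R 4.3.3 (robust quasi-likelihood F test, TMM, filterByExpr) and genes called at a Benjamini-Hochberg adjusted p under 0.05. Another normalization, DESeq2 1.42.0, other filters, other sets of libraries, the block and leaving out each library were alternatives. The fit was tested on simulated data. The replicate numbers come from the sample titles. Same-numbered medium and low libraries deviated together over 10032 genes (r 0.255, 0.489 and 0.413), above the threshold of 0.1 in each pair, whereas high and low (0.0425, 0.0635 and 0.113) and high and medium (0.0735, 0.0521 and 0.141) did not in each. The block fit of the 6 libraries alone was added after the data were seen.

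Comparison, gene lists and tests were chosen with earlier results of these data known. Named genes were, per direction, the 12 largest called or, with fewer than 5, the 5 of smallest p with at least 1 CPM, and the smallest p of each list. Genes called in the block fits, selenoprotein, prostaglandin and Wnt genes, and high-dose genes were added after their values were seen. Of 9 genes looked up, 5 had a promoter sequence. Results of some genes that these rules name are left out of the text.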

Additional observations from a re-analysis of the deposited data

How the results depend on the processing

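The count of genes called between 100 and 20 µg/mL was 0 in the 12-library edgeR fit. It was 2 with DESeq2, 26 with no filter on low counts, and 0 to 1 when each library was left out, with ALDH3A1 called without medium replicate 2 and ENSG00000257411 without low replicate 3. With the replicate block it was 4 for the 9 Zizyphi Semen libraries and 16 for the 6 medium and low libraries, a fit chosen after seeing the data. Other size factors, a 1 CPM filter, the 2 groups alone, and 9, 52 or 54 libraries gave 0. For 500 against 20 µg/mL, 252 became 472 with no filter, 5 with 54 libraries, 403 with the block and 117 to 180 without 1 library. For 500 against 100 µg/mL, 118 became 332 with no filter, 45 with the 2 groups alone, 56 with 9, 60 with 52 and 1 with 54 libraries, 226 with the block and 23 to 190 without 1 library. The common dispersion was 0.01731 with 54 libraries, against 0.001718 with 12. In the comparison of dose steps, no filter gave 15 genes for Longan Arillus and 16 for Schisandrae Fructus, and the block within extract 7 and 2. The cause of these differences was not tested. None of the 41 genes recomputed under the alternatives changed direction.

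At this depth genes under 1 CPM have few counts. With 3 libraries a group, only differences that exceed a small spread can pass, and intervals cover the spread between these libraries only.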
